A study of Homo sapiens with 6 samples.

Results

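SIX6, SIX3, RAX, LHX2, PAX6, OTX2, MITF, SERPINF1 and PMEL, genes of the retinal lineage that the study followed in its organoids, were examined at the stage before any organoid was made. They were chosen by their symbols, so that 9 of the 61155 gene symbols in the count table were members. The rule itself uses no measured value, but the set was drawn up with earlier results of these data known. Of the 9 members, 7 passed the filter on low counts, and RAX and LHX2 did not. The libraries were bulk RNA sequencing of H7, a human embryonic stem cell (hESC) line grown without feeder cells on Matrigel in TeSR-E8 medium. One group was wild type (WT, 3 libraries), and the other carried a CRISPR/Cas9 deletion in RPS6KB1, the gene of the kinase S6K1, made with guides against exons 9 and 11 (S6K1-/-, 3 libraries). The labels call the cells undifferentiated and also give a time of week 5, and the methods describe undifferentiated cells. The labels are also at odds over the second group, with a knockdown as its genotype and a knockout in the protocol, and they name another Cas9 plasmid than the methods. The name S6K1-/- follows the protocol and the methods. The S6K1-/- libraries came from clone #1, so that the genotype and the clone cannot be told apart. Nothing says whether replicates were separate cultures, and the p-values measure only the spread between these libraries.

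The eye field is the patch of the anterior neural plate from which both eyes form, and it is defined by a set of transcription factors that maintain each other's expression. SIX3, SIX6, RAX, LHX2, PAX6 and OTX2 belong to this set or to the anterior neural territory around it. The optic vesicle then divides into neural retina and retinal pigment epithelium, where MITF, together with OTX2, drives pigment cell genes such as PMEL. Undifferentiated hESCs have not taken these steps, and OTX2 is also a factor of primed pluripotent cells.

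Libraries held between 21896698 and 24473013 counts. RPS6KB1 itself had 831, 791 and 777 counts in WT and 464, 464 and 438 in S6K1-/- libraries. It fell by 0.75 on the log2 scale (SE 0.057, edgeR adjusted p = 2.52e-07). Every edgeR adjusted p given here comes from the quasi-likelihood test over all genes tested, adjusted by Benjamini-Hochberg and read against a threshold of 0.001. Its paralog RPS6KB2 changed by 0.07 (edgeR adjusted p = 0.540). Of the 13 hESC markers examined, POU5F1 had 4490, 4480 and 4116 counts in WT and 3914, 4022 and 4264 in S6K1-/- libraries. Of these 13, 1 was lower (DNMT3B) and 1 higher (PRDM14), and their summed level was between 7919 and 8099 CPM (counts divided by the TMM-scaled library size and set to a common total) in WT and between 7424 and 7528 in S6K1-/- libraries.

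Across the 19521 genes tested, 2.54% were lower and 1.42% higher in S6K1-/- hESCs, 3.96% in either direction. Of the 7 members tested, 4 were lower (SIX6, OTX2, SERPINF1 and PMEL), 1 was higher (PAX6) and 2 did not pass the threshold (SIX3 and MITF). WT and S6K1-/- libraries were fully apart for 5 of these 7 members, as they were for 30.7% of all genes tested. The median log2 fold change of the 7 was -0.39, against -0.00 over all genes tested. The summed level of the 9 members was between 135 and 143 CPM in WT and between 108 and 110 CPM in S6K1-/- libraries. In bulk RNA, fewer cells that express a gene and less RNA per cell cannot be told apart.

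**Figure D1:**
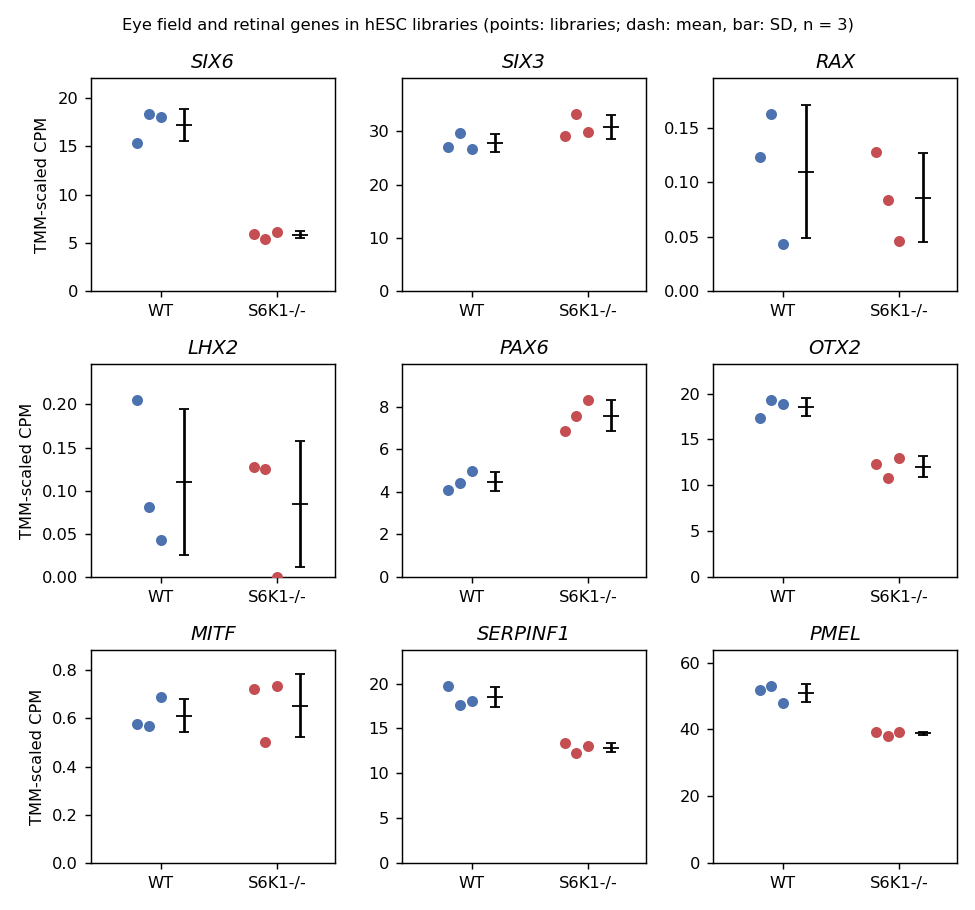
TMM-scaled CPM of the 9 members in each library, one panel per gene with its own axis from 0, with points for WT (blue) and S6K1-/- (red) libraries, a dash for the mean and a bar for the SD (n = 3). The groups are apart for SIX6, PAX6, OTX2, SERPINF1 and PMEL and overlap for SIX3, RAX, LHX2 and MITF.

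**Figure D2:**
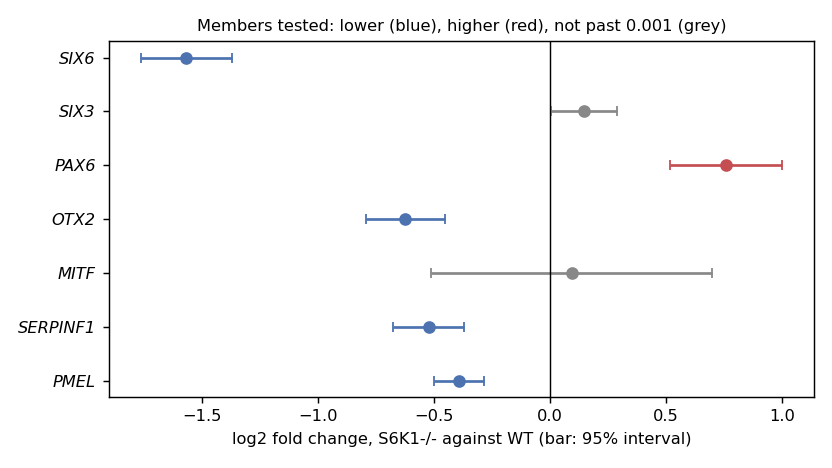
Log2 fold change of S6K1-/- against WT hESCs for the 7 members tested, with the 95% interval. SIX6 lies farthest from 0 at -1.57 and PAX6 is the member above 0 that passed the threshold.

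The windows just upstream of the transcription starts of SIX6, OTX2 and PAX6 are shown because these are the eye field factors whose RNA differed between the groups. RefSeq sequences on GRCh38.p14 were matched for 6 of the 9 members, and SIX3, SERPINF1 and PMEL were not among them. The 250 bases before the start are given 5′ to 3′ in the direction of the gene, on the plus strand for SIX6 (chr14:60508896-60509145) and on the minus strand for OTX2 (chr14:56810480-56810729) and PAX6 (chr11:31817962-31818211). The RefSeq start used for OTX2 lies inside the gene as GENCODE annotates it, so that its window is upstream of an internal start, while the starts of SIX6 and PAX6 are the same in both. Capitals mark the matches to the motifs searched, read on the gene's strand.
SIX6: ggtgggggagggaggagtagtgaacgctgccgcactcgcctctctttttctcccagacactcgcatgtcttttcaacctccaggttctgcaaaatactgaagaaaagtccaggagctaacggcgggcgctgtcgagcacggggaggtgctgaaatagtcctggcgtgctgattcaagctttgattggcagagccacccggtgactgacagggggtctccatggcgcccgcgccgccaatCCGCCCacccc
OTX2: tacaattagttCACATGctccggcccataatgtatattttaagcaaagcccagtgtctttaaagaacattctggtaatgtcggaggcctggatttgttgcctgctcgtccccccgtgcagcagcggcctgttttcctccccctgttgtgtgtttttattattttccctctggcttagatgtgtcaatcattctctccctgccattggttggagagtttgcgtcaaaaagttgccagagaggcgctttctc
PAX6: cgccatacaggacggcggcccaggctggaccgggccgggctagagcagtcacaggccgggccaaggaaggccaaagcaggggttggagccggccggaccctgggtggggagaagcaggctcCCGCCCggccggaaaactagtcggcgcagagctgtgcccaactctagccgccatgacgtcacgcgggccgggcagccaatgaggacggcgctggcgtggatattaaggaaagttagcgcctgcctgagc

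Promoter sites were searched on both strands. TAATCC is bound by homeodomains of the OTX2 type. TAATTA is bound by paired and LIM homeodomains, and TGATAC by those of the SIX6 kind. The MITF family binds the E-box CACGTG. It also binds its variant CATGTG. The GC box was searched as GGGCGG. The TATA box was searched as TATAAA. No 2 matches overlapped in the windows printed. The SIX6 window held 1 GC box on the opposite strand, 11 to 6 bases before the start, and the PAX6 window held 1 at 129 to 124 bases. The OTX2 window held no GC box and 1 CATGTG on the opposite strand, 239 to 234 bases before the start. Over 27305 RefSeq promoter windows of this length, GGGCGG occurred in 42.3%, CATGTG in 9.54%, TAATCC in 5.67%, TAATTA in 4.49% and TGATAC in 3.90%. The windows also differed in base composition, with a GC content of 60.0% for SIX6, 68.4% for PAX6 and 47.2% for OTX2 against a median of 58.0%. These matches describe letters in the windows and were not tied to the RNA values.

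SIX6, a homeodomain repressor of the eye field and of retinal progenitors, differed most among the members. Its gene (ENSG00000184302.7) lies on chr14:60509146-60512850 of GRCh38 in the GENCODE annotation. It had 374, 452 and 419 counts in WT and 139, 130 and 133 in S6K1-/- libraries. Every S6K1-/- library was thus far below every WT library, and the S6K1-/- libraries were close to each other. The level went from 17.3 ± 1.65 CPM (SD, n = 3) in WT to 5.82 ± 0.351 CPM in S6K1-/- hESCs, 2.97-fold lower (95% interval of the log2 fold change from -1.77 to -1.37). SIX6 fell by 1.57 on the log2 scale (SE 0.0927, edgeR adjusted p = 1.41e-08) and ranked 65 among all genes tested by its p-value. The whole SIX6 gene lies inside C14orf39 on the opposite strand. C14orf39 had 94, 99 and 99 counts in WT and 78, 82 and 61 in S6K1-/- libraries (log2 fold change -0.34, edgeR adjusted p = 0.0981), and without a known strand setting reads of the overlapping part cannot be assigned to 1 of them.

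SIX3, the closest relative of SIX6 and a repressor of posterior WNT signals in the anterior neural plate, did not pass the threshold. It had 657, 731 and 619 counts in WT and 682, 797 and 651 in S6K1-/- libraries, and the groups overlapped. Its level was 27.8 ± 1.69 CPM in WT and 30.7 ± 2.24 CPM in S6K1-/- hESCs (SD, n = 3; log2 fold change 0.15, 95% interval 0.00 to 0.29, edgeR adjusted p = 0.179). The counts of SIX6 relative to those of SIX3 in the same library were 0.569, 0.618 and 0.677 in WT and 0.204, 0.163 and 0.204 in S6K1-/- libraries. SIX3 lies on chr2:44941702-44946071, where the antisense RNA SIX3-AS1 overlaps 215 bp of it (log2 fold change -0.08, edgeR adjusted p = 0.864).

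Some other relatives of SIX6 and SIX3, homeodomain factors of eye, ear and muscle, were read beside them. Not all of the family is reported here, so these values do not show whether SIX6 stands apart from its relatives. SIX4, on the same chromosome as SIX6, had 1415, 1469 and 1416 counts in WT and 1445, 1375 and 1270 in S6K1-/- libraries (log2 fold change -0.01, edgeR adjusted p = 0.901). SIX2, a neighbour of SIX3 at 59.111 kb, had 67, 72 and 50 counts against 37, 39 and 30, which did not overlap but missed the threshold (log2 fold change -0.77, edgeR adjusted p = 0.00818). SIX5 gave a log2 fold change of -0.14 (edgeR adjusted p = 0.183). SIX4 and SIX5 were named after their values were seen.

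RAX, which is needed for the eye field to form, and LHX2, which acts in the optic vesicle, were close to the limit of detection. RAX had 3, 4 and 1 counts in WT and 3, 2 and 1 in S6K1-/- libraries. LHX2 had 5, 2 and 1 counts in WT and 3, 3 and 0 in S6K1-/- libraries. For each of the 2 genes this made 8 WT counts and 6 S6K1-/- counts in all, a ratio of 0.771 with an exact 95% interval from 0.221 to 2.53 that covers counting error only. The levels were 0.112 CPM in WT (interval 0.0481 to 0.220) and 0.0860 CPM in S6K1-/- hESCs (interval 0.0316 to 0.187), and a difference within these limits was not detectable at this depth. RAX lies on chr18:59267035-59274086 and LHX2 on chr9:124001670-124033301.

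PAX6, a paired and homeodomain factor of the eye field and of the whole anterior neural plate, was the member that moved up. It had 99, 108 and 115 counts in WT and 161, 181 and 181 in S6K1-/- libraries, so that the lowest S6K1-/- library was above the highest WT library. Its level rose from 4.47 ± 0.447 to 7.58 ± 0.729 CPM (SD, n = 3), 1.69-fold, with a log2 fold change of 0.76 (SE 0.113, 95% interval 0.52 to 1.00, edgeR adjusted p = 2.69e-04). PAX6 kept this direction whichever library was left out, but its adjusted p became 0.00186 without WT replicate 1 (log2 fold change 0.71), 0.00149 without S6K1-/- replicate 2 (0.76) and 0.00228 without S6K1-/- replicate 3 (0.70). PAX6 lies on chr11:31784779-31817961, and ELP4 on the opposite strand overlaps 5546 bp of it. ELP4 had 413, 437 and 421 counts in WT and 465, 423 and 437 in S6K1-/- libraries (log2 fold change 0.12, edgeR adjusted p = 0.290). Without a known strand setting, reads of the overlapping part cannot be assigned to PAX6 or to ELP4. PAUPAR, an antisense RNA at the PAX6 locus, had between 1 and 6 counts a library.

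OTX2, a homeodomain factor of forebrain, retina and pigment epithelium, moved the other way. It had 423, 475 and 439 counts in WT and 289, 258 and 283 in S6K1-/- libraries, without overlap. The level went from 18.5 ± 1.02 to 12.0 ± 1.14 CPM (SD, n = 3), 1.54-fold lower, and OTX2 fell by 0.63 on the log2 scale (SE 0.0795, 95% interval -0.80 to -0.46, edgeR adjusted p = 6.03e-05). Counts of PAX6 relative to OTX2 in the same library were 0.234, 0.227 and 0.262 in WT and 0.557, 0.702 and 0.640 in S6K1-/- libraries. OTX2 lies on chr14:56799905-56816693, and its antisense RNA OTX2-AS1 had at most 1 count in any library.

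MITF, the basic helix-loop-helix factor that directs pigment cell genes, was at a low level in both groups. It had 14, 14 and 16 counts in WT and 17, 12 and 16 in S6K1-/- libraries. The groups overlapped at 0.611 ± 0.0673 and 0.653 ± 0.132 CPM (SD, n = 3), and the log2 fold change of 0.09 had a 95% interval from -0.51 to 0.70 (edgeR adjusted p = 0.886), wide enough to hold a change in either direction. MITF lies on chr3:69739456-69968336.

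SERPINF1 encodes the secreted factor PEDF, which the pigment epithelium releases and other tissues also make. It had 481, 434 and 420 counts in WT and 313, 294 and 283 in S6K1-/- libraries, without overlap. The level went from 18.5 ± 1.11 to 12.9 ± 0.537 CPM (SD, n = 3), 1.44-fold lower, and SERPINF1 fell by 0.52 on the log2 scale (SE 0.0712, 95% interval -0.68 to -0.37, edgeR adjusted p = 1.16e-04). Its adjusted p was 0.00126 without S6K1-/- replicate 2 (log2 fold change -0.49) and 0.00138 without S6K1-/- replicate 3 (-0.52). SERPINF1 lies on chr17:1762029-1777565, and its nearest genes tested, SMYD4 at 1.92 kb and WDR81 at 23.43 kb, gave log2 fold changes of 0.18 and 0.01 (edgeR adjusted p = 0.0822 and 0.986).

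PMEL encodes the protein whose fibrils form the scaffold of the melanosome. It had 1261, 1304 and 1113 counts in WT and 918, 913 and 851 in S6K1-/- libraries. The lowest WT library was above the highest S6K1-/- library. The level went from 50.9 ± 2.67 to 38.8 ± 0.555 CPM (SD, n = 3), 1.31-fold lower, and PMEL fell by 0.39 on the log2 scale (SE 0.0509, 95% interval -0.50 to -0.29, edgeR adjusted p = 6.95e-05). PMEL lies on chr12:55954105-55973317 in a dense stretch. The whole of CDK2, 6009 bp on the opposite strand, lies inside it, and DGKA and RAB5B lie 0.078 and 0.596 kb away. CDK2 had 1241, 1301 and 1171 counts in WT and 1163, 1201 and 1151 in S6K1-/- libraries. Without a known strand setting, reads of the overlapping part cannot be assigned to PMEL or to CDK2. CDK2 gave a log2 fold change of -0.02 (edgeR adjusted p = 0.861), DGKA one of -0.16 (0.134) and RAB5B one of 0.03 (0.740).

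To compare levels between genes, CPM were divided by the length of all exons of a gene in kb. In WT hESCs the order was PMEL at 13.9 CPM per kb, SIX3 at 10.2, SIX6 at 6.66, SERPINF1 at 6.19, OTX2 at 5.45, PAX6 at 0.217, MITF at 0.0824, LHX2 at 0.0440 and RAX at 0.0290. Neighbours in this order were apart in every WT library except SIX6 (5.93 to 7.09) and SERPINF1 (5.90 to 6.61), LHX2 (0.0172 to 0.0823) and MITF (0.0768 to 0.0928), and RAX (0.0114 to 0.0430) and LHX2, whose ranges overlapped. Relative to the 15619 genes tested that matched a single gene model, the WT level per kb exceeded that of 81.6% for PMEL, 64.6% for SIX6, 59.1% for OTX2, 6.68% for PAX6 and 1.59% for MITF. In S6K1-/- hESCs SIX3 came first at 11.3 CPM per kb, ahead of PMEL at 10.6, and SIX6 at 2.25 came after SERPINF1 at 4.30 and OTX2 at 3.54. The length taken for PAX6, 20639 bases, is the union of the exons of all its annotated transcripts, which lowers its value per kb. The levels of SIX6, PAX6 and PMEL also carry the limit that reads shared with overlapping genes on the other strand cannot be assigned.

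**Figure D3:**
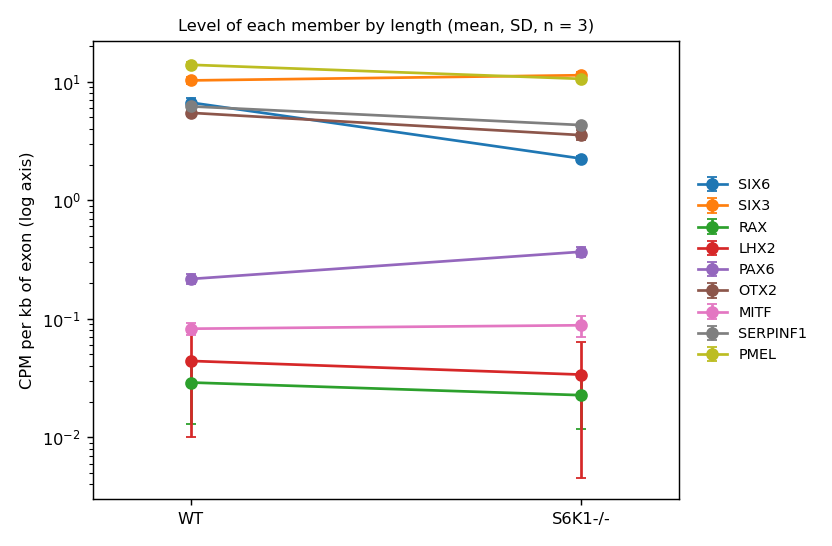
Mean CPM per kb of exon (log axis) of the 9 members in WT and S6K1-/- hESCs, with the SD over 3 libraries. SIX6 drops from 6.66 to 2.25, below SERPINF1 and OTX2, PAX6 rises from 0.217 to 0.367, and RAX and LHX2 stay at the bottom with wide bars.

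SIX6 and OTX2 are both on chromosome 14, 3692 kb apart. Of the 22 genes tested between them, 1 was lower (DACT1, a regulator of WNT signalling) and 0 were higher in edgeR, with a median log2 fold change of 0.01 (3 and 0 at an unadjusted p under 0.05, 1 and 0 in DESeq2). DACT1 had 1212, 1273 and 1233 counts in WT and 751, 740 and 700 in S6K1-/- libraries and fell by 0.70 on the log2 scale (edgeR adjusted p = 9.91e-08). Within 1000 kb of SIX6, 14 other genes were tested, of which 1 was lower and 1 higher (PRKCH). Within 1000 kb of SIX3, PAX6 or OTX2, none of the 10, 6 and 5 other genes tested passed the threshold in edgeR or DESeq2, with medians of -0.03, -0.05 and 0.04. At an unadjusted p under 0.05 there were 1 lower and 2 higher genes around SIX3 and 0 around PAX6 and OTX2. In windows of the same size, 2 of 7 genes tested were lower around MITF (EOGT and TMF1), 2 of 27 around SERPINF1 (MRM3 and CLUH) and 1 of 50 around PMEL (RBMS2), and 0 were higher in edgeR or DESeq2. At an unadjusted p under 0.05 the higher genes numbered 0, 5 and 3. Of the 8 genes around RAX and the 16 around LHX2, none passed in either tool, with 3 lower and 1 higher in each window at an unadjusted p under 0.05. LINC01833, 2.503 kb before SIX3, had 312, 326 and 311 counts in WT and 396, 422 and 365 in S6K1-/- libraries and narrowly missed the threshold (log2 fold change 0.38, edgeR adjusted p = 0.00106). The nearest genes tested on either side of RAX (SEC11C and LMAN1), LHX2 (DENND1A and NEK6), PAX6 (IMMP1L and RCN1), OTX2 (TMEM260 and EXOC5) and MITF (FRMD4B and FOXP1), and RBM8B before SIX6, gave log2 fold changes between -0.18 (SEC11C, edgeR adjusted p = 0.0816) and 0.50 (RBM8B, edgeR adjusted p = 0.383). Chromosome 14 as a whole had 13 lower and 9 higher genes of 495 tested.

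**Figure D4:**
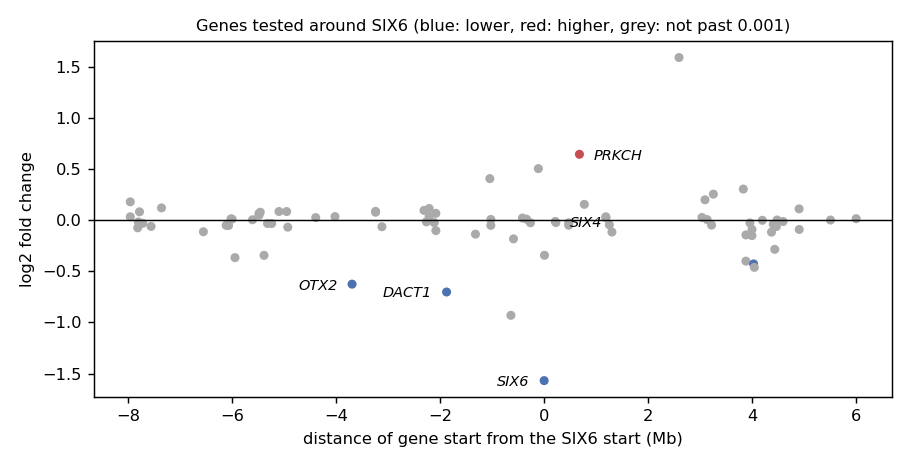
Log2 fold change of the genes tested around SIX6, by the distance of their start from the SIX6 start in Mb, leaving out a gene that is not reported here. SIX6 lies at -1.57 and SIX4, to its right, at -0.01, and OTX2 and DACT1 are the lower genes to the left. With a gene left out, the plot does not show whether SIX6 stands alone at its locus.

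Of 25 other eye field and retinal progenitor genes, 13 were tested, and 2 were lower and 0 higher in edgeR, with a median log2 fold change of -0.01 (6 lower and 3 higher at an unadjusted p under 0.05, 2 and 0 in DESeq2). Among the lower was SHISA2, an inhibitor of WNT and FGF receptor maturation in the anterior head. SHISA2 had 815, 858 and 791 counts in WT and 369, 414 and 360 in S6K1-/- libraries and fell by 1.05 on the log2 scale (edgeR adjusted p = 1.05e-08). VAX1, VAX2, PAX2, RAX2, LHX9, NR2E1, VSX1 and MAB21L2 had at most 3 counts in every library.

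Of 26 other genes of the pigment epithelium and of melanin, 14 were tested, and 3 were lower and 1 higher, with a median of -0.11. GPR143, a melanosome receptor, had 516, 526 and 483 counts in WT and 281, 333 and 274 in S6K1-/- libraries and fell by 0.72 on the log2 scale (edgeR adjusted p = 4.16e-06). MLPH and RAB27A, which together carry melanosomes along actin, fell by 0.63 and 0.67 (edgeR adjusted p = 1.94e-04 and 4.14e-04). The edgeR adjusted p of RAB27A was 0.00168 with the replicate number as a block, and over the fits that left out 1 library it reached 0.00356 (without WT replicate 3). It also missed the threshold without WT replicate 1 (0.00256) and without S6K1-/- replicate 1, 2 or 3 (0.00231, 0.00180 and 0.00298). MLPH missed it without WT replicate 1 (0.00196), S6K1-/- replicate 1 (0.00156) and S6K1-/- replicate 3 (0.00187). LRAT, an enzyme of the visual cycle, was the gene that rose, from 1356, 1348 and 1292 to 1814, 1832 and 1678 counts (log2 fold change 0.47, edgeR adjusted p = 8.19e-07). TYR, the enzyme that starts melanin synthesis, and TTR had 0 counts in all libraries, and RPE65, SLC45A2 and TFEC had at most 3. OTX1, the paralog of OTX2, had 13, 14 and 7 counts in WT and 2, 1 and 2 in S6K1-/- libraries and was not tested. OTX1 was named after its values were seen.

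**Figure D5:**
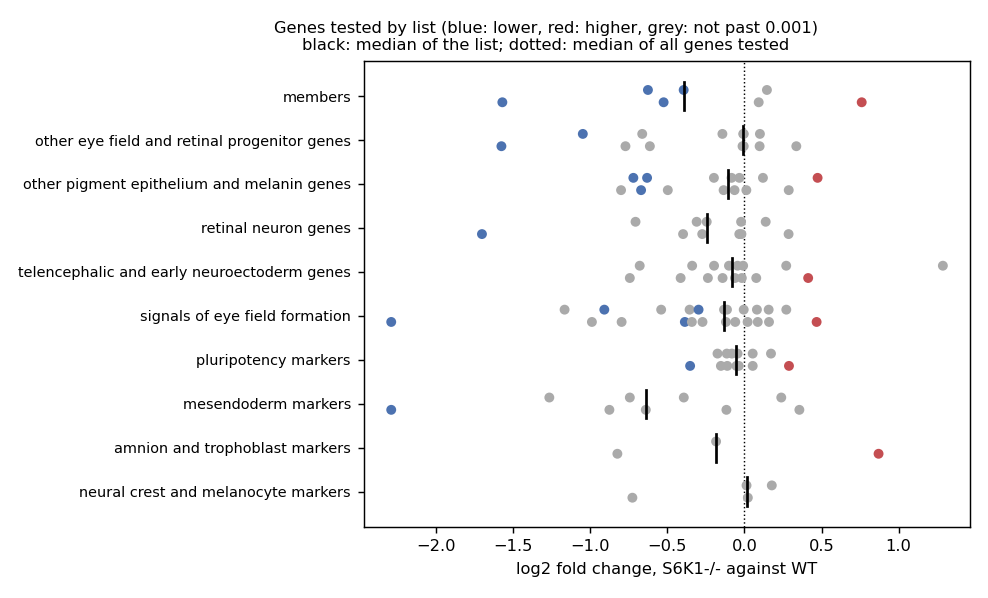
Log2 fold change of the genes tested in each list, with blue for lower, red for higher and grey for genes not past an adjusted p of 0.001, a black line for the median of each list and a dotted line for all genes tested. The members have a median of -0.39, the other eye field genes one of -0.01 and the mesendoderm markers one of -0.64.

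Of 28 genes of retinal neurons, 11 were tested and 12 had at most 3 counts in every library, among them ISL1, RCVRN, NEUROD1 and POU4F2. STMN2, a microtubule protein of axons, was lower and none was higher in edgeR (median -0.24, 5 lower and 1 higher at an unadjusted p under 0.05, 1 and 0 in DESeq2). STMN2 had 1184, 1209 and 1204 counts in WT and 367, 364 and 330 in S6K1-/- libraries and fell by 1.70 on the log2 scale (edgeR adjusted p = 1.41e-11). ONECUT1, a factor of horizontal and ganglion cells, had a log2 fold change of 0.29 (edgeR adjusted p = 0.0200), which passed the threshold when no filter on low counts was applied (9.72e-05).

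Of 27 telencephalic and early neuroectoderm genes, 16 were tested, and 0 were lower and 1 was higher in edgeR (median -0.08, 3 lower and 3 higher at an unadjusted p under 0.05, 0 and 1 in DESeq2). SP8, a factor of the anterior forebrain, rose from 1722, 1758 and 1654 to 2218, 2241 and 2095 counts (log2 fold change 0.41, edgeR adjusted p = 2.65e-06). HESX1, an early repressor of the anterior neural plate, had 83, 103 and 75 counts against 58, 48 and 50 (log2 fold change -0.68, edgeR adjusted p = 0.00811), which passed the threshold when no filter on low counts was applied (6.25e-04).

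Of 29 genes of signals that act on the eye field, 23 were tested, and 4 were lower and 1 higher (median -0.13). CER1, a secreted inhibitor of NODAL, BMP and WNT, had 69, 49 and 57 counts in WT and 9, 10 and 15 in S6K1-/- libraries and fell by 2.29 on the log2 scale (edgeR adjusted p = 1.31e-05). LEFTY2, an inhibitor of NODAL, fell by 0.91 from 388, 410 and 368 to 196, 198 and 201 counts (edgeR adjusted p = 7.42e-07), and FGF2 fell by 0.39 (edgeR adjusted p = 1.97e-05). The WNT inhibitor SFRP1 fell by 0.30 (edgeR adjusted p = 1.73e-04) and lost the call in 5 of the 6 fits that left out 1 library, all but that without WT replicate 2, with adjusted p up to 0.00252. EFNB1, an ephrin that guides cells into the eye field, rose from 609, 597 and 551 to 791, 821 and 719 counts (log2 fold change 0.47, edgeR adjusted p = 2.72e-05).

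OTX2, CER1 and LEFTY2 are also expressed in cells other than neural ones, and markers of such cells were read in the same libraries. Of 13 mesendoderm markers, 9 were tested, 1 was lower (CER1) and 0 were higher in edgeR, with a median of -0.64 (5 lower and 2 higher at an unadjusted p under 0.05, 2 and 0 in DESeq2), and their summed level was 31.9 to 35.0 CPM in WT and 29.5 to 30.6 CPM in S6K1-/- libraries. FOXA2 had 136, 189 and 116 counts in WT and 78, 81 and 71 in S6K1-/- libraries (edgeR adjusted p = 0.00108), and SOX17 and GATA6 had at most 3. Of 10 amnion and trophoblast markers, 3 were tested and GATA2 was higher (log2 fold change 0.87, edgeR adjusted p = 6.39e-05), while the summed level was 8.91 to 10.3 CPM in WT and 9.79 to 10.1 CPM in S6K1-/- libraries. KRT7 gave a log2 fold change of -0.82 (edgeR adjusted p = 0.00103), and TFAP2B and HAND1 had 0 counts throughout. Of 10 neural crest and melanocyte markers, 4 were tested and none passed the threshold in edgeR or in DESeq2, with 1 lower and 1 higher at an unadjusted p under 0.05, SOX10 and KIT (edgeR adjusted p = 0.0143 and 0.0144). Their summed level was 184 to 190 CPM in WT and 193 to 196 CPM in S6K1-/- libraries. None of it came from TYR, which had 0 counts in all libraries. The part of these cells in the values of OTX2, PMEL and PAX6 was not tested. DNMT3B, a DNA methyltransferase of primed cells, fell by 0.35 (edgeR adjusted p = 4.88e-05), and PRDM14, a repressor that maintains pluripotency, rose by 0.29 (edgeR adjusted p = 3.62e-04) but missed the threshold without WT replicate 1 or 3 or S6K1-/- replicate 1 or 2, with adjusted p up to 0.00390.

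For the 5 members that passed the threshold, the genes with the most similar profile over the 6 libraries were sought. The measure was Pearson's r of the log2 of CPM plus 1, over the 16809 genes that averaged 1 CPM or more. The 6 libraries share the 2 groups, so that any gene that differs between them correlates with the members, and 1285 genes had an r above 0.9 with SIX6. The most similar were NR1I3, TMBIM1 and LYST for SIX6, CDCA4, ACAD11 and RAB12 for PAX6 and BEX1, OGFRL1 and MAP10 for OTX2. SARM1, ATP10D and COL14A1 were most similar to SERPINF1, and GPRIN1, SRPX and GABRA2 to PMEL, all with r between 0.993 and 1.00.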

How the data were processed

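Total RNA of undifferentiated WT and S6K1-/- H7 hESCs was made into TruSeq stranded mRNA libraries and sequenced as paired reads on MGISEQ-2000. According to the methods and the submitters' processing notes, the authors trimmed reads with Trim Galore 0.6.5, aligned them to GRCh38 with Bowtie2 2.4.5, which does not align across splice junctions, sorted them with Sambamba and counted them per gene with featureCounts. They deposited these counts as whole numbers without normalization. Which annotation release and strand setting they used is not given in the sources used here. A table of the authors' own DESeq2 comparison (1.37.4, with fold changes and p-values) was not used.

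Genes were kept with filterByExpr (minimum count 10), which left 19521 of 61155 symbols, and WT and S6K1-/- libraries were set against each other in the quasi-likelihood model of edgeR 4.0.16 (R 4.3.3) with TMM factors and no covariate. Benjamini-Hochberg adjustment ran over all genes tested, at the study's threshold of 0.001. Totals of 21896698 to 24473013 counts per library limit the precision of genes with few counts. Counting intervals are exact Poisson or binomial at 95%. The members and lists were chosen with earlier results of these data known, and some genes are in more than 1 list. The text names all members, RPS6KB1 and RPS6KB2, up to 4 genes with the smallest p past the threshold in each list or 2 where fewer pass, overlapping and nearest genes, called genes between OTX2 and SIX6, and the 3 genes most similar to each called member. SFRP1, genes at the floor and markers were added to these. Some genes that this rule would name are not reported here. Positions are those of GENCODE 44, in which 36797 symbols matched 1 gene, and promoter windows those of RefSeq. Only the edgeR and DESeq2 fits of the 2 groups were run on simulated counts, with 1 common dispersion for all genes. The other steps were not simulated. Alternatives were DESeq2's size factors and Wald test (DESeq2 1.42.0), other filters, a threshold of 0.05, the replicate number as a block and leaving out each library. Same-numbered libraries correlated at 0.044, 0.011 and 0.043 in their deviations from the group means, so that the numbers do not pair them.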

Additional observations from a re-analysis of the deposited data

How the results depend on the processing

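The counts of genes lower and higher, 496 and 278, were 1622 and 1067 at an adjusted p under 0.05 and 982 and 591 without a filter on low counts, and between 313 and 445 and between 175 and 235 without 1 library. Under the fits that left out 1 library, members lower ranged from 3 to 4 and members higher from 0 to 1. PAX6 kept its direction but missed 0.001 in 3 of these fits and SERPINF1 in 2, with log2 fold changes over all 6 of 0.70 to 0.85 and -0.56 to -0.46. SIX6 (-1.64 to -1.52), OTX2 (-0.68 to -0.55) and PMEL (-0.43 to -0.36) kept the call under all 12 alternatives, and SIX3 (0.09 to 0.20) and MITF (0.01 to 0.26) passed under none of them. With the replicate block, 423 genes were lower and 241 higher, SIX6 was at -1.57 (edgeR adjusted p = 2.18e-07) and PAX6 at 0.76 (edgeR adjusted p = 3.48e-04), no member changed its call, and of the list genes named RAB27A lost and KRT7 gained one. The numbers do not pair the libraries. FOXA2 and KRT7 passed 0.001 with DESeq2's Wald test (1.56e-04 and 8.02e-04) and without WT replicate 3, and they passed together with HESX1 and ONECUT1 without a filter on low counts (4.44e-09, 4.30e-07, 6.25e-04 and 9.72e-05). RAX and LHX2 gave a value only without a filter, a log2 fold change of -0.34 for both (edgeR adjusted p = 0.872 and 0.871), and CER1 gave none with at least 10 counts in every library. No result reversed. The cause of these shifts was not tested, except that a looser threshold or fewer libraries changes the number of calls by construction. Depth limits RAX, LHX2 and MITF most.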
